A study of Mus musculus with 9 samples.

Results

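Mitochondrial ribosomal proteins are nuclear-encoded proteins that are made in the cytosol, imported into mitochondria and assembled with mitochondrial rRNA into the mitochondrial ribosome. That ribosome translates the mRNAs of the mitochondrial genome, all of which encode subunits of the oxidative phosphorylation complexes. Its large subunit joins amino acids and holds the exit tunnel, which faces the inner membrane, and its small subunit decodes the mRNA. Some of its proteins have bacterial counterparts and others are specific to mitochondria.

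The transcripts of these proteins were measured by RNA-seq of polyA RNA from mouse bone marrow-derived macrophages. Bone marrow cells were differentiated for 7 days in medium with 30% L929 cell supernatant, a source of macrophage growth factor, and were then given interferon-gamma at 40 ng/ml for 12 h. All 9 libraries had that treatment, so no untreated cells were compared. The cells were wild type, deficient in Ndufa4 (Ndufa4KO), or deficient in both Ndufa4l3 and miR-147 (Ndufa4l3miR147KO, also called Nmes1-deficient), and each of the 3 genotypes gave 3 libraries. Ndufa4 is a protein of respiratory complex IV and Ndufa4l3 is its paralog. The labels give no mouse strain, age or number of animals, and they describe the 3 libraries of a genotype as technical replicates, so every p-value below measures only the spread between these libraries.

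The members were the genes whose symbols start with Mrpl or Mrps and a number, without pseudogene symbols, and with at least 1 TPM (the library's transcripts scaled to a fixed total, with length taken into account) in at least 3 of the 9 libraries. This gave 77 genes of 29763 named genes. The same filter kept 11133 genes in all, and none of the 77 failed it. By role, 50 members are large-subunit proteins, among them Mrps30 and Mrps18a despite their names, and 26 are small-subunit proteins. Mrps36, the remaining one, carries the family name but is known as a subunit of the oxoglutarate dehydrogenase complex.

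Ndufa4l3, listed under its older symbol AA467197, was at 365, 358 and 355 TPM in the wild-type libraries, 2.90, 2.21 and 4.50 TPM in the Ndufa4l3miR147KO and 527, 472 and 519 TPM in the Ndufa4KO. Those levels match the labels of the Ndufa4l3miR147KO. Ndufa4 was listed at or near 0 in every library, wild type included (0.621 TPM at most), and so checks no label. Macrophage markers were high in all genotypes, with Lyz2 at a mean of 4585 TPM and Adgre1 (listed as Emr1) at 408.5 TPM in wild type, and the summed level of 6 T, B and NK cell markers was at most 0.657 TPM in any library. Ndufa4KO replicate 3 stood apart: the median of all genes there lay 0.12 below the mean of the 9 libraries on the log2(TPM + 1) scale, against -0.01 to 0.04 in the other 8, and its upper quartile was 7.79 TPM against 9.24 to 9.84. Results that rest on it are given with and without it.

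Mitochondrial ribosomal protein transcripts were of moderate abundance and spanned a wide range. In wild type their median was 48.0 TPM, between 19.1 TPM for all genes tested and 154 TPM for 35 nuclear-encoded complex I subunits, and far below the 815 TPM of 87 cytosolic ribosomal proteins. TPM is scaled per transcript length, so these levels can be set side by side. Of the 77 members, 13 had a mean of at least 100 TPM, 51 lay between 20 and 100, 12 between 5 and 20, and 1 below 5. The plot of member levels shows how closely the 3 genotypes follow each other along that range.

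**Figure D1:**
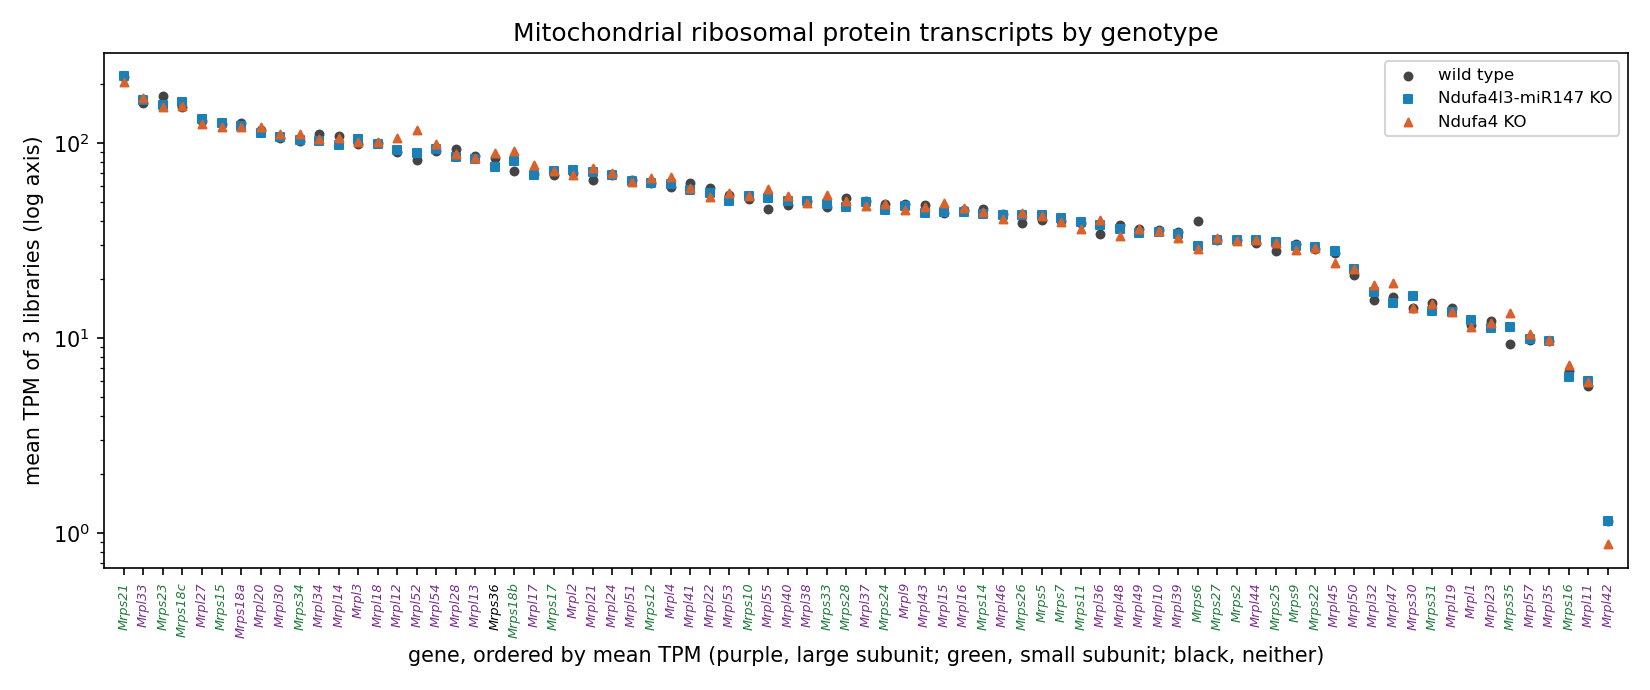
Mean TPM of 3 libraries per genotype (log y axis) for each of the 77 genes, ordered from the highest to the lowest mean over 9 libraries. Levels run from 214 TPM for Mrps21 to 1.06 TPM for Mrpl42, and the 3 symbols of a gene mostly overlap.

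The most abundant was Mrps21, a small-subunit protein of the bacterial S21 family, with a mean of 214 TPM over the 9 libraries. Its libraries read 222, 227 and 207 TPM in wild type, 202, 227 and 230 TPM in the Ndufa4l3miR147KO and 173, 208 and 232 TPM in the Ndufa4KO, so the 3 genotypes overlapped. Next came Mrpl33 (166 TPM), Mrps23 (161 TPM), Mrps18c (157 TPM), Mrpl27 (130 TPM) and Mrps15 (124 TPM). At the low end were Mrps35 (11.4 TPM), Mrpl57 (10.1 TPM), Mrpl35 (9.72 TPM), Mrps16 (6.78 TPM), Mrpl11 (5.88 TPM) and Mrpl42 (1.06 TPM). Proteins of one ribosome are present in about equal number, except for the stalk protein Mrpl12, whose transcript was at 96.0 TPM. Its stalk partners Mrpl10, which anchors Mrpl12 to the large subunit, and Mrpl11 were at 35.3 and 5.88 TPM.

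A member with a near-identical copy shares reads with it. Mrpl23, a large-subunit protein at the exit of the tunnel, was listed at a mean of 11.8 TPM, while its processed pseudogene Mrpl23-ps1 was listed at 165 TPM. The annotated transcripts of the pair are 100% identical over 540 bases, so the share of each cannot be told from these values. Summed, they gave 174 ± 6.85 TPM (SD, n = 3) in wild type, 175 ± 1.65 TPM in the Ndufa4l3miR147KO and 182 ± 35.2 TPM in the Ndufa4KO. In all, 20 of the 77 members had a pseudogene elsewhere in the genome with at least 95% identity over at least 200 bases. Apart from Mrpl23-ps1, the pseudogenes with a listed level were at a mean of 0.27 TPM or less, and others were not listed.

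The 3 paralogs of the bacterial S18 protein differed in level. Mrps18c, in the small subunit, had 153 ± 5.78 TPM in wild type, and Mrps18a, which sits in the large subunit, had 126 ± 5.92 TPM. Mrps18b, a small-subunit paralog outside the S18 site, had 71.8 ± 2.31 TPM. Mrps12, a protein of the decoding centre, was at 62.1 ± 4.46 TPM, and Mrpl45, which contacts the inner membrane, at 27.2 ± 1.94 TPM. Mrps36 stood at 83.9 ± 5.42 TPM, 75.2 ± 0.631 TPM and 89.1 ± 12.9 TPM in wild type, Ndufa4l3miR147KO and Ndufa4KO.

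The summed level of the family barely moved between genotypes. In wild type the 77 members summed to 4598, 4601 and 4441 TPM, in the Ndufa4l3miR147KO to 4437, 4595 and 4582 TPM, and in the Ndufa4KO to 4374, 4556 and 5010 TPM. Only Ndufa4KO replicate 3 lay outside the wild-type range on the high side. Members made up 0.475% to 0.544% of all TPM of named genes. The large-subunit sum divided by the small-subunit sum was between 1.74 and 1.87 in every library. Each knockout overlapped wild type (1.757 to 1.851) in that ratio. The Ndufa4KO (1.820 to 1.873) lay just above the Ndufa4l3miR147KO (1.736 to 1.816). Within a genotype, the SD of a member's log2(TPM + 1) had a median of 0.10, against 0.11 for 5209 genes in the same range of levels.

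In the comparison of the Ndufa4l3miR147KO with wild type, which asks what the loss of Ndufa4l3 and miR-147 does to the family, the mitochondrial ribosomal proteins stayed close to their wild-type levels. With limma and Benjamini-Hochberg adjustment over all 11133 genes at 0.05, 0 of the 77 were called, against 0.431% of all genes tested (0.243% higher and 0.189% lower). At an unadjusted p under 0.05 there were 5 members (6.49%), against 8.24% of all genes. The median log2 change of the members was 0.01 and that of all genes 0.00, and 75 of the 77 members changed by less than 0.25 on the log2 scale. This log2 scale is log2(TPM + 1), which understates the change of low genes. A fit with weights per library, in which 2 members were higher and 1 lower, is the only one of the 20 alternative settings that called any. That was 3.90% of the members, against 4.83% of all genes in the same fit.

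Mrps6, the counterpart of bacterial S6 in the small subunit, had the largest difference in that comparison. It was at 42.5, 40.7 and 36.2 TPM in wild type and 32.4, 24.9 and 32.0 TPM in the Ndufa4l3miR147KO. The libraries of the 2 genotypes did not overlap, and the log2 difference was -0.41 ± 0.10 (SE, n = 3 each; limma adjusted p = 0.203). Values for the next lower members were -0.15 for each of Mrps36, Mrps23 and Mrps28, and those for the higher members were 0.26 for Mrps35, 0.19 for Mrps30, 0.18 for Mrpl55 and 0.17 for Mrps18b, all with adjusted p above the threshold.

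In the Ndufa4KO, 4 members rose against wild type and 1 fell. Mrpl52, Mrpl55, Mrps18b and Mrpl12 were the 4 that rose, by 0.23 to 0.51 on the log2 scale, and Mrps6 fell by 0.47. The background was 8.59% of all genes called, 2.83% higher and 5.76% lower, so the 6.49% of members called was no larger a share than that of all genes. The median log2 change was 0.01 over the members and -0.08 over all genes. No member changed 2-fold, and 72 of 77 changed by less than 0.25. By subunit, 3 of 50 large-subunit members rose and 0 fell, and of 26 small-subunit members 1 rose and 1 fell.

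**Figure D2:**
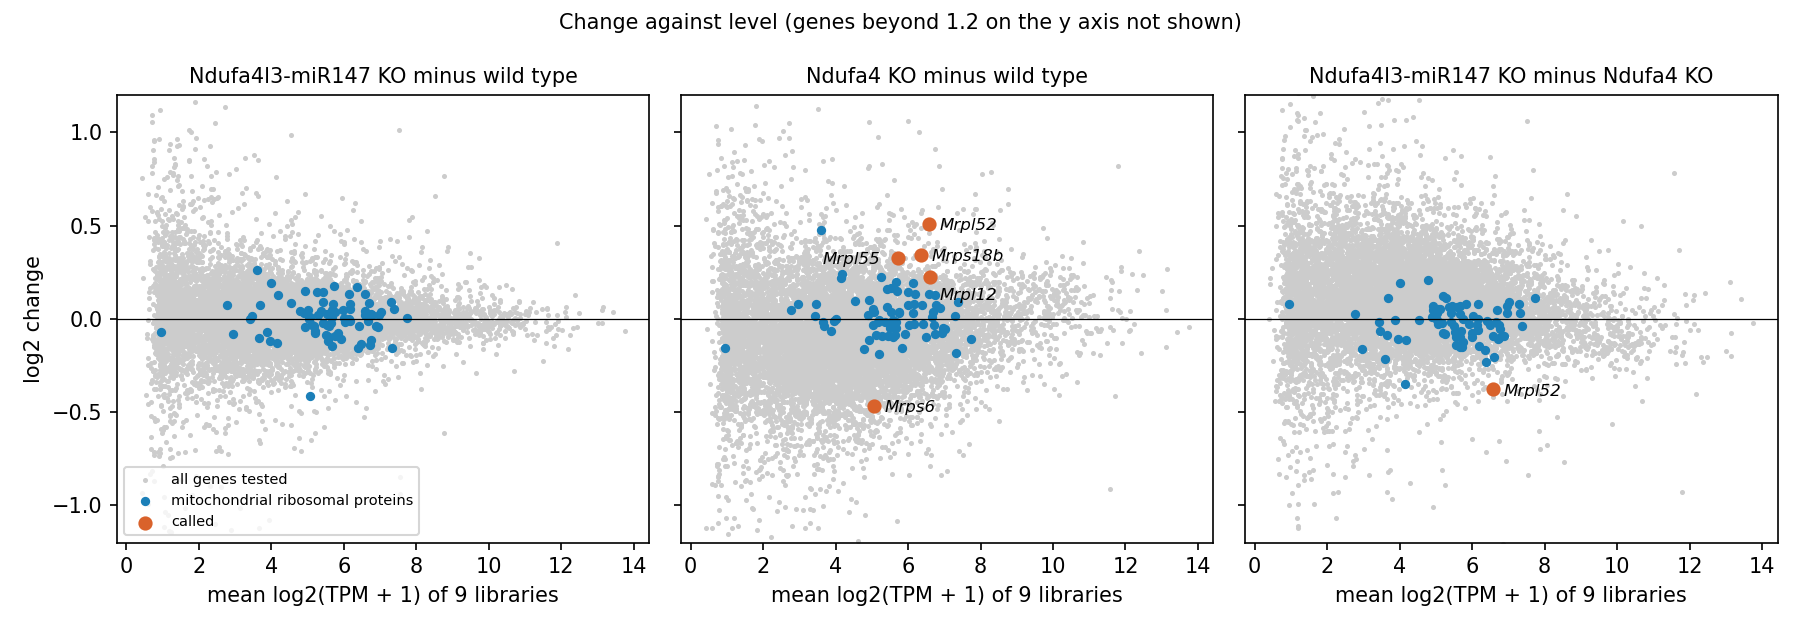
Log2 change against mean log2(TPM + 1) of the 9 libraries, for all genes tested (grey), the 77 members (blue) and the members called at an adjusted p under 0.05 (orange), in the 3 comparisons. No member is called in the first panel, 5 are in the second and 1 in the third.

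Mrpl52 is a mitochondria-specific protein of the large subunit. It was at 82.1, 80.2 and 81.9 TPM in wild type, 86.5, 92.6 and 88.9 TPM in the Ndufa4l3miR147KO and 112, 111 and 126 TPM in the Ndufa4KO. The 3 genotypes did not overlap, with the Ndufa4KO highest. The difference between the Ndufa4KO and wild type was 0.51 ± 0.06 (SE, n = 3 each; limma adjusted p = 0.0020), and it was called under all 20 alternative settings.

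Mrpl55 is the mitochondrial counterpart of bacterial L31 in the large subunit. Its libraries read 47.9, 44.5 and 45.8 TPM in wild type, 53.3, 50.3 and 52.9 TPM in the Ndufa4l3miR147KO and 59.2, 54.4 and 60.5 TPM in the Ndufa4KO. Again no Ndufa4KO library overlapped wild type, and the log2 difference was 0.33 ± 0.06 (SE; limma adjusted p = 0.014).

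Mrps18b had 73.6, 69.1 and 72.6 TPM in wild type, 81.5, 81.8 and 79.6 TPM in the Ndufa4l3miR147KO and 94.2, 82.9 and 96.9 TPM in the Ndufa4KO. All Ndufa4KO libraries were above all wild-type libraries, by 0.34 ± 0.06 on the log2 scale (SE; limma adjusted p = 0.016). Its neighbour Ppp1r10, transcribed in the opposite direction from a start within 1000 bases, differed by -0.01 (adjusted p = 0.970).

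Mrpl12, the stalk protein that recruits translation factors, was at 88.4, 91.5 and 91.1 TPM in wild type, 90.4, 92.9 and 91.5 TPM in the Ndufa4l3miR147KO and 98.7, 106 and 113 TPM in the Ndufa4KO. The Ndufa4KO libraries lay above the other 6, and the difference from wild type was 0.23 ± 0.06 (SE; limma adjusted p = 0.042). Its partners did not pass the test, with 0.05 for Mrpl11 and -0.02 for Mrpl10.

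Mrps6 was at 29.2, 27.8 and 28.5 TPM in the Ndufa4KO, below all 3 wild-type libraries given above, and fell by 0.47 ± 0.10 (SE; limma adjusted p = 0.029). Slc5a3, a myo-inositol transporter gene that overlaps Mrps6 on the same strand, was at 0.637 TPM in the Ndufa4KO and 1.31 TPM in wild type (log2 difference -0.51, adjusted p = 0.103). Whether reads of the overlap were shared between them was not tested.

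**Figure D3:**
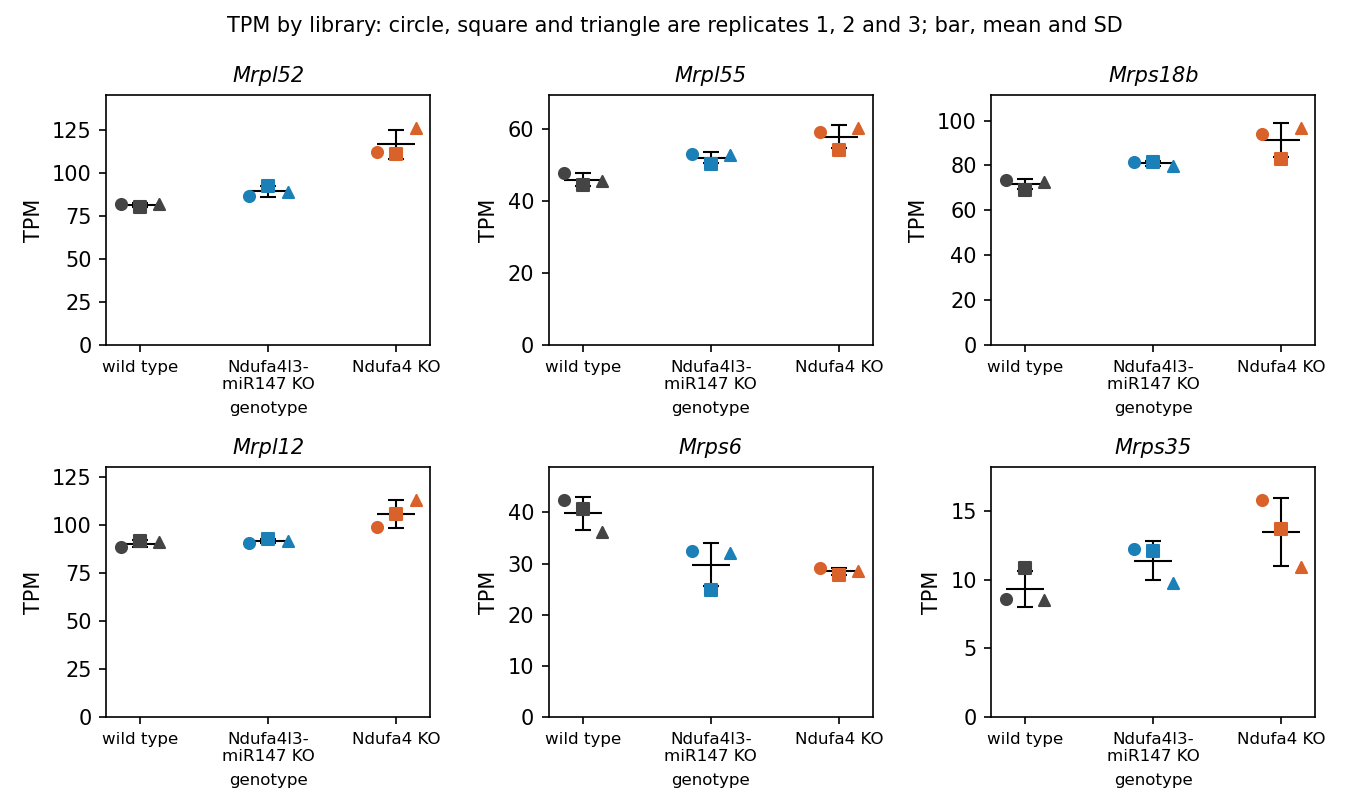
TPM in each of the 9 libraries (y axis from 0) for the 5 members called in the Ndufa4KO against wild type and for Mrps35, with the mean and SD of 3 libraries. In every panel the Ndufa4KO points lie apart from the wild-type points. In the Mrps35 panel the Ndufa4KO points spread from 10.9 to 15.8 TPM, and the highest wild-type point is just below them at 10.8 TPM.

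Other members came close without passing. Mrps35, a small-subunit protein of low level, had 8.62, 10.8 and 8.54 TPM in wild type and 15.8, 13.7 and 10.9 TPM in the Ndufa4KO, a difference of 0.48 ± 0.15 (SE; adjusted p = 0.083). Mrpl21 and Mrpl36, both with bacterial counterparts in the large subunit, differed by 0.19 and 0.23 (adjusted p = 0.083 and 0.089). The largest differences downward after Mrps6 were -0.19 for Mrpl48, -0.18 for Mrps23 and -0.16 for Mrpl45. The role examples Mrps12, Mrps18a and Mrps18c differed by 0.08, -0.07 and 0.01, and Mrps36 by 0.08.

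The calls depend on the libraries. Without Ndufa4KO replicate 3, 5 members rose and 2 fell: Mrps35 and Mrpl48 joined the 5 above. That was 9.09% of the members against 14.2% of all genes in the same fit, and the median of the members was -0.03 against -0.03 for all genes. Leaving out wild-type replicate 1 left Mrpl52 and Mrpl55 as the members called, and leaving out wild-type replicate 2 or 3 left Mrpl52 alone, with adjusted p of 0.055 to 0.146 for the others over those 3 fits. Calls fell over all genes too: 2.60%, 1.30% and 1.30% of the members were called, against 2.39%, 2.39% and 2.60% of all genes. Without Ndufa4KO replicate 2, Mrpl12 (adjusted p = 0.068) and Mrps6 (0.058) were lost, and Mrpl12 was also lost on leaving out any library of the Ndufa4l3miR147KO (0.071 to 0.076), which shares the estimate of the spread. The members called were 3.90% against 9.71% of all genes without Ndufa4KO replicate 2. Without a library of the Ndufa4l3miR147KO they were 5.19% against 5.31% to 5.97%. With median-of-ratios scaling 6 members were higher and 0 lower (Mrps6 -0.39, adjusted p = 0.053), and over all genes the split moved from 315 higher and 641 lower to 492 and 442. That was 7.79% of the members against 8.39% of all genes.

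Beside these changes, several markers of cell type and state moved in the Ndufa4KO. Of all genes tested, 8.59% were called in that comparison, 2.83% higher and 5.76% lower. Of 8 macrophage markers, Lyz2 was higher and Cd14 and Mertk lower (adjusted p = 0.011, 0.00033 and 0.049). Of 6 dendritic cell markers, 2 were high enough to be tested and Clec9a was called, at 26.7 TPM in wild type and 55.2 TPM in the Ndufa4KO (adjusted p = 0.017). The sum of the 6 was at most 30.1 TPM in wild type, 31.4 to 35.5 TPM in the Ndufa4l3miR147KO and 41.8 to 76.8 TPM in the Ndufa4KO, with the defining markers Flt3 and Zbtb46 at no more than 0.30 TPM in any library. Of 7 erythroid, megakaryocyte, mast cell and basophil markers, 3 were tested and Pf4 was lower in the Ndufa4KO (adjusted p = 0.028), and their sum was 108 to 239, 126 to 173 and 81.9 to 120 TPM in the 3 genotypes, in the order used above. Cd14 was called with any 1 library left out. Clec9a and Pf4 were not called without any 1 of the wild-type libraries (adjusted p = 0.062 to 0.112), Lyz2 without wild-type replicate 1 or 2 (0.058 and 0.064), or Mertk without any 1 library of wild type or Ndufa4l3miR147KO (0.080 to 0.153). The part of these markers in the results was not tested, and in bulk RNA fewer cells of a type and less RNA per cell cannot be told apart.

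The direct comparison of the knockouts tests whether their effects on a member differ, since both were compared with the same wild-type libraries. In the Ndufa4l3miR147KO against the Ndufa4KO, 1 of 77 members was called, Mrpl52, lower by 0.38 ± 0.06 on the log2 scale (SE, n = 3 each; limma adjusted p = 0.013). The background was 3.24% of all genes, 2.20% higher and 1.04% lower. This call was lost without Ndufa4l3miR147KO replicate 1 (adjusted p = 0.068) or replicate 3 (0.066). The other members called in the Ndufa4KO did not differ past the threshold between the knockouts, with -0.21 for Mrpl12 (adjusted p = 0.092), -0.17 for Mrps18b (0.190), -0.15 for Mrpl55 (0.207) and 0.05 for Mrps6 (0.807). The members' median was -0.02 and that of all genes 0.07, and without Ndufa4KO replicate 3 these were 0.02 and 0.03.

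Mrpl47, a large-subunit protein of the bacterial L29 family, differed by -0.35 between the knockouts, Mrps36 by -0.23 and Mrps35 by -0.22. Mrpl47 was at 12.0, 13.3 and 20.1 TPM in the Ndufa4l3miR147KO and at 17.8, 18.8 and 20.8 TPM in the Ndufa4KO. Its adjusted p was 0.263 with all libraries and 0.047 without Ndufa4l3miR147KO replicate 3, the library at 20.1 TPM. In that fit Mrpl47 and not Mrpl52 was called. Ndufb5 (mean 98.6 TPM) and Actl6a (82.6 TPM) overlap Mrpl47 on the other strand, with transcripts 100% identical over 530 and 453 bases. Whether reads were shared between these genes was not tested. In all, 35 of the 77 members were overlapped by an annotated gene on the other strand. Without Ndufa4KO replicate 1, Mrpl12 was called beside Mrpl52, and without Ndufa4KO replicate 2, Mrps36 was. On the higher side were Mrpl45 (0.21), Mrps30 (0.19), Mrpl48 (0.12) and Mrps11 (0.11), none of them past the test.

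Ndufa4KO replicate 3 was the library in which the family deviated most. Its 77 members had a median deviation of 0.09 from the mean of the 9 libraries, and 64 of them were above that mean, while the median of all genes was -0.12. Cytosolic ribosomal proteins and complex I subunits deviated further in the same library, by medians of 0.24 and 0.18. In the other 8 libraries the members' median lay between -0.05 and 0.02. In replicate 3, 6 fibroblast markers summed to 131 TPM, mostly Col3a1 at 116 TPM, against 6.42 to 45.5 TPM in the other 8 libraries, and 6 neutrophil markers to 1.47 TPM against 3.68 to 68.3 TPM. The part of these markers in the deviation was not tested.

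**Figure D4:**
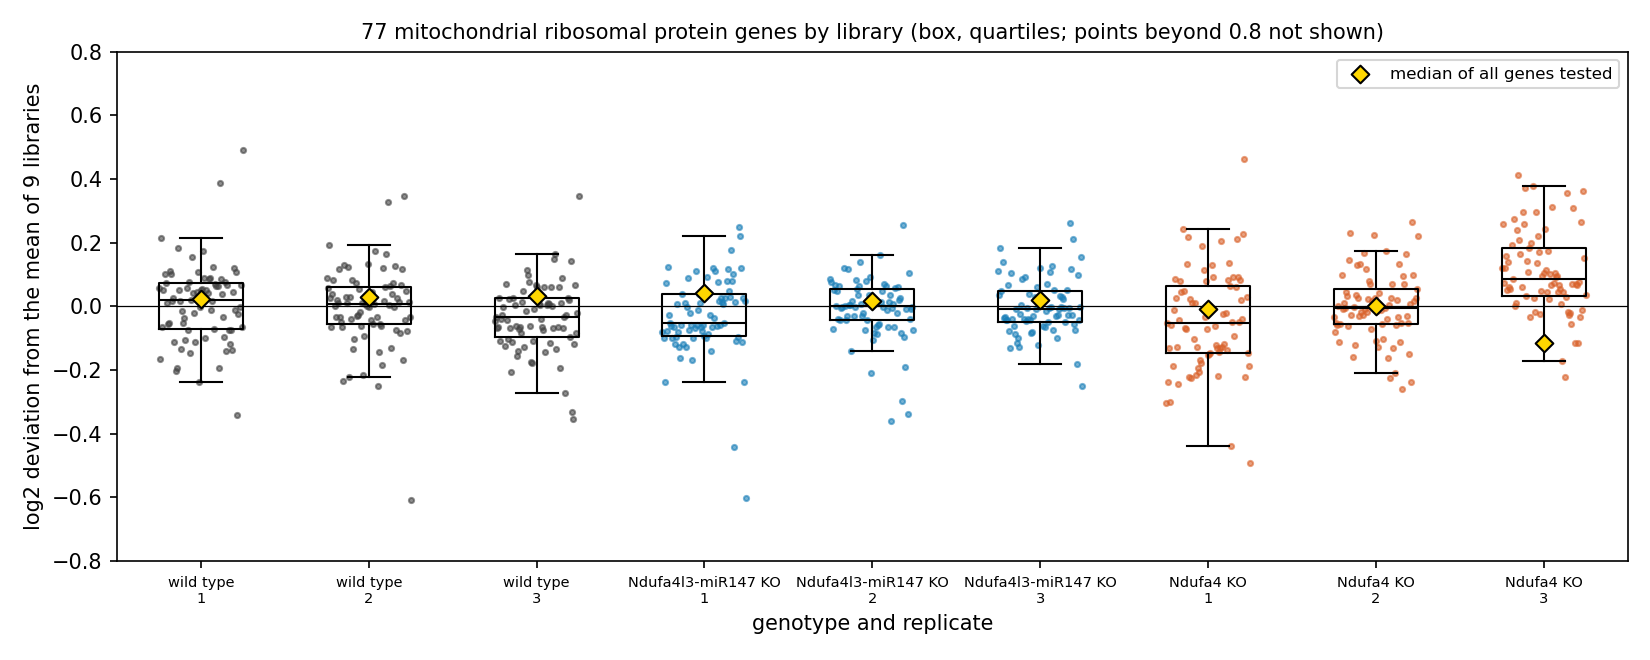
Deviation of each member's log2(TPM + 1) from its mean over 9 libraries, by library (points, with the median and quartiles as a box), and the median of all genes tested (diamonds). In Ndufa4 KO replicate 3 the members centre on 0.09 and all genes on -0.12.

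Transcript length moved with that library's difference. Against the mean of Ndufa4KO replicates 1 and 2, replicate 3 was higher by a median of 0.12 for genes with transcripts under 1000 bases, and the medians were -0.07, -0.26 and -0.43 for those of 1000 to 2000, 2000 to 4000 and at least 4000 bases. Across 11062 genes the Spearman correlation of length with the difference was -0.471, and across the 77 members it was -0.238. These are descriptions over genes of the same libraries, which are not independent replicates. The members are short, with a median of 1075 bases against 1673 for all genes, and their median difference was 0.13. The 6823 genes between the 10th and 90th percentile of the members' lengths had a median of -0.03. With the trend in length and GC content removed from every library, 5 members rose in the Ndufa4KO and 1 fell, Mrps35 joining the 5 above. That was 7.79% of the members against 14.3% of all genes in the same fit.

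**Figure D5:**
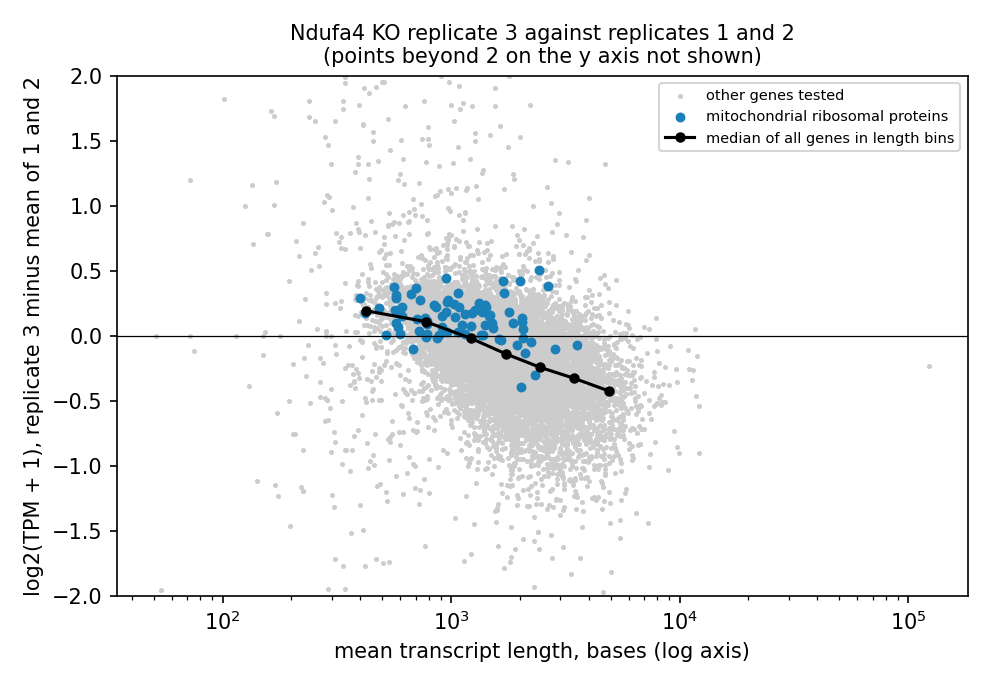
Difference of Ndufa4 KO replicate 3 from the mean of replicates 1 and 2 (log2 scale) against mean transcript length in bases (log x axis), for the members (blue) and the other genes tested (grey), with the median of all genes in length bins (black). The medians fall as transcripts get longer, and most members lie above 0.

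As a group the members rose and fell together only loosely. Over the 9 libraries, the mean Pearson correlation with the other members was highest for Mrps16 (0.32), Mrpl17 (0.32) and Mrpl4 (0.30), and lowest for Mrps2 (-0.31), Mrpl50 (-0.19) and Mrpl1 (-0.18). All members share the 9 libraries, Ndufa4KO replicate 3 included, so these values describe the table and carry no test.

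The promoters of the family share sequence features that the choice of members did not use. RefSeq start sites on GRCm38.p6 gave 74 windows of 300 bases (250 before the start and 50 after) for 68 of the 77 members. Motifs known from promoters of mitochondrial protein genes were searched on both strands: GCGCANGCG for NRF1, CCGGAAG for the ETS family with GABP, and AAGATGGC for YY1. At least 1 of them was in 58.1% of member windows, against 32.5% of 10569 windows of genes tested, 51.3% of 76 cytosolic ribosomal protein windows and 16.0% of all 32851 windows.

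Taken singly, NRF1 was in 16 of 74 member windows (21.6%) against 1478 of 10569 windows of genes tested, the ETS motif in 33.8% against 18.5%, and YY1 in 16.2% against 4.74%. In cytosolic ribosomal protein windows the shares were 10.5% for NRF1, 32.9% for ETS, close to that of the members, and 10.5% for YY1. The Sp motif GGGCGG was in fewer member windows than windows of genes tested, 52.7% against 62.7%, and the TATA motif TATAAA was in 6.76% against 6.84%. Of 12 YY1 matches, 8 began within the 50 bases from the start on. Overlapping matches of different motifs were counted for each motif. A match is a run of letters and not evidence of binding.

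The 120 bases before the RefSeq start are printed for the 5 members called in the Ndufa4KO, because these are the genes the comparison turns on, and for Mrps21, the most abundant member. Matches to the NRF1, ETS or YY1 motif are in capitals, and positions count the start as 0.
Mrpl52: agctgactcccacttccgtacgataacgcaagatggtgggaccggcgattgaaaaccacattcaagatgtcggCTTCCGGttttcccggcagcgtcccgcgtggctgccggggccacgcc
Mrpl55: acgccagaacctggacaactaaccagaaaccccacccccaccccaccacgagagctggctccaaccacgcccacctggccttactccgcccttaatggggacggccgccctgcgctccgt
Mrps18b: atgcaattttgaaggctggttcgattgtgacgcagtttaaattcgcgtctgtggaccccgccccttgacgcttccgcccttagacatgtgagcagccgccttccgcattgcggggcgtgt
Mrpl12: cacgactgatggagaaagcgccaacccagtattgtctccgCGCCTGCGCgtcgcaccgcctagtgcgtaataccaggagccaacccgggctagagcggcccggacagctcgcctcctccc
Mrps6: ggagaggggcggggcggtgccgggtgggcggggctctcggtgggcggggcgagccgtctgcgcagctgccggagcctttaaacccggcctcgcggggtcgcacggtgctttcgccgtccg
Mrps21: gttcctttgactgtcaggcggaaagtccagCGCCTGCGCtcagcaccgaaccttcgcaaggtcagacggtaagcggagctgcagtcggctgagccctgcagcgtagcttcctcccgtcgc

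These stretches lie at chr14:54426789-54426908 (plus strand) for Mrpl52, chr11:59202366-59202485 (plus) for Mrpl55, chr17:35916441-35916560 (minus) for Mrps18b, chr11:120484517-120484636 (plus) for Mrpl12, chr16:92058216-92058335 (plus) for Mrps6 and chr3:95871515-95871634 (minus) for Mrps21, on GRCm38.p6. Mrpl52 held an ETS match at -47 to -41 and another at 2 to 8, beyond the printed bases. Mrpl12 and Mrps21 each held an NRF1 match, at -80 to -72 and -90 to -82. Mrps21 also held an ETS match at 18 to 24, beyond the printed bases. Mrps18b matched only outside the printed bases, NRF1 at -224 to -216 and ETS at 43 to 49. All these matches were on the opposite strand. Mrpl55 and Mrps6 held none of the 3 motifs in the 300 bases, so none of the 3 motifs was found in all 4 members that rose.

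The members are spread over 17 chromosomes, with 10 on chromosome 11 and 8 on chromosome 17. On GRCm38 (GENCODE M21), 33 of the 77 (42.9%) had the start of another protein-coding gene within 1000 bases on the opposite strand, against 17.7% of 10301 protein-coding genes tested. Of the 5 members called in the Ndufa4KO, Mrps18b was the one so placed. The gene bodies of those 5 span chr14:54426909-54429756 for Mrpl52, chr11:59202486-59206134 for Mrpl55, chr17:35910379-35916389 for Mrps18b, chr11:120484613-120489065 for Mrpl12 and chr16:92058270-92112227 for Mrps6. These GENCODE starts are not always the RefSeq starts used for the promoters. Part of the bases printed above for Mrps6, Mrpl12 and Mrps21 lies inside the gene as GENCODE annotates it.

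The rest of the mitochondrial translation machinery was examined as gene lists. Among mitochondrial ribosomal proteins with other symbols (Dap3, Ptcd3, Chchd1, Aurkaip1 and Gadd45gip1), 0 of 5 were called in any comparison. Ptcd3, a small-subunit protein, was at 16.4 ± 0.309, 18.6 ± 0.545 and 20.9 ± 3.15 TPM in wild type, Ndufa4l3miR147KO and Ndufa4KO. The most abundant of the 5 was Chchd1, at 109 ± 3.71 TPM in wild type, followed by Aurkaip1 at 76.0 ± 3.45 TPM. Mrpl58, the peptidyl-tRNA hydrolase of the large subunit, is listed under its older symbol Ict1 and fell outside the rule; it was added after its values were seen, at 49.7, 54.7 and 62.5 TPM in wild type and 48.1, 50.1 and 59.6 TPM in the Ndufa4KO.

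Of 30 mitoribosome assembly factors, 3 rose in the Ndufa4KO (10%) and 0 fell, with a median log2 change of -0.02. Of all genes, 2.83% were higher and 5.76% lower, 8.59% in either direction. C1qbp, a matrix protein needed for mitochondrial translation, was at 102, 106 and 109 TPM in wild type, 119, 131 and 120 TPM in the Ndufa4l3miR147KO and 160, 140 and 155 TPM in the Ndufa4KO. The 3 genotypes did not overlap, and C1qbp rose by 0.52 ± 0.06 (SE; limma adjusted p = 0.0029) against wild type; it was lower in the Ndufa4l3miR147KO than in the Ndufa4KO by 0.30 (adjusted p = 0.044). Tfb1m, which methylates the small-subunit rRNA, rose by 0.65 ± 0.13 (adjusted p = 0.021), to 10.3 ± 0.898 TPM from 5.21, 6.48 and 6.92 TPM in the wild-type libraries. Rbfa, a maturation factor of the same rRNA, rose by 0.18 ± 0.05 (adjusted p = 0.046). The change of C1qbp against wild type was called with any 1 library left out, while its difference between the knockouts was called only when Ndufa4KO replicate 2 or 3 was the one left out (adjusted p = 0.074 to 0.170 otherwise). Tfb1m lost its call without wild-type replicate 1 (0.083) or 2 (0.069), and Rbfa without any library other than Ndufa4KO replicates 1 and 3 (0.068 to 0.174).

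Other steps of the pathway had few calls. Of 17 mitochondrial translation factors, 0 were called in the Ndufa4KO, the most abundant being the elongation factors Tufm (76.5 ± 1.91 TPM in wild type, 83.9 ± 7.15 TPM in the Ndufa4KO) and Gfm1 (53.0 ± 2.66 and 57.1 ± 1.54 TPM). Of 22 genes that charge mitochondrial tRNAs (19 aminoacyl-tRNA synthetases and 3 amidotransferase subunits) 0 were called, with Kars at 148 and 146 TPM and Gars at 108 and 119 TPM in wild type and Ndufa4KO. Neither were any of 28 genes of mitochondrial transcription and RNA processing, led by Hsd17b10 (97.7 and 107 TPM) and Fastk (58.2 and 59.7 TPM). These counts of 0 were not the same in every fit. The tRNA-charging list had 2 higher without Ndufa4KO replicate 3 and 3 higher with median-of-ratios scaling or with the length and GC trend removed. The processing list had 1 higher without that replicate or with the trend removed, and the translation factors had 1 higher with the trend removed. Of all genes, 8.59% were called in the fit used above, 14.2% without that replicate, 8.39% with the scaling and 14.3% with the trend removed. Against wild type, 0 genes of any of these lists were called in the Ndufa4l3miR147KO.

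The mRNAs that the mitochondrial ribosome translates had a median change of 0.23 in the Ndufa4KO against wild type, with 11 of 13 above 0 and 1 called. Among all genes 3952 of 11133 were above 0 and 8.59% were called. Without Ndufa4KO replicate 1, in which these 13 mRNAs summed to 53239 TPM against 42721 and 44126 TPM in replicates 2 and 3, the median was 0.10, with 9 of 13 above 0, 1 higher and 1 lower. Without replicate 2 there were 5 higher. The share of all genes called was 9.98% without replicate 1 and 9.71% without replicate 2. The 1 called with all libraries was mt-Nd3, a complex I subunit, at 1309 ± 5.27 TPM in wild type and 1587 ± 119 TPM in the Ndufa4KO (log2 difference 0.27, adjusted p = 0.027). Among 12 regulators of mitochondrial genes, Myc was called, as higher (8.33%, against 2.83% of all genes higher and 8.59% in either direction). Myc, a transcription factor known to drive ribosome and mitochondrial biogenesis genes, was at 22.3, 21.7 and 21.3 TPM in wild type, 28.6, 26.4 and 31.9 TPM in the Ndufa4l3miR147KO and 42.4, 37.6 and 37.7 TPM in the Ndufa4KO. It rose by 0.82 ± 0.08 (SE; limma adjusted p = 0.00099) in the Ndufa4KO and was lower in the Ndufa4l3miR147KO than in the Ndufa4KO by 0.43 (adjusted p = 0.026). Its change in the Ndufa4KO was called with any 1 library left out. Its difference between the knockouts was not called without any 1 of the wild-type libraries or without Ndufa4l3miR147KO replicate 1 or 2 (adjusted p = 0.056 to 0.109), and mt-Nd3 against wild type was not called without any 1 of the wild-type libraries or without Ndufa4l3miR147KO replicate 2 (0.052 to 0.102).

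Cytosolic ribosomal proteins, the nearest comparison for the family, had 5 of 87 higher (5.75%) and 0 lower in the Ndufa4KO, with a median change of 0.12. Among all genes 2.83% were higher and 5.76% lower, 8.59% in either direction. Without Ndufa4KO replicate 1, 2 or 3 there were 11, 15 and 6 higher and 0 lower, and without replicate 3 the median was 0.05. In those fits 9.98%, 9.71% and 14.2% of all genes were called in either direction. With the length and GC trend removed 17 were higher, against 864 of all 11062 genes in that fit. In the Ndufa4l3miR147KO against the Ndufa4KO 22 were then lower, against 422 of all 11062 genes. The fit without that step called 1 there. Rpl12 rose by 0.47 (adjusted p = 0.012), and lost its call without wild-type replicate 2 (0.058) or 3 (0.059). For complex I subunits the count was 0 of 35 and the median 0.02, and without Ndufa4KO replicate 3 there were 2 lower and the median was -0.04. Without Ndufa4KO replicate 1 or 2 there was 1 higher in each fit. No test of the difference between these lists and the mitochondrial ribosomal proteins was made.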

How the data were processed

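The deposited table holds TPM per gene symbol for 9 RNA-seq libraries; per the submitters' processing notes kallisto was used, and both mm10 and GRCm39 are named, without saying which build the table rests on. TPM keeps no read depth, so depth is unknown and no counting intervals are given. Groups came from the sample labels. A gene was tested when 3 or more libraries reached 1 TPM, as log2(TPM + 1) with limma 3.58.1 (R 4.3.3), 1 fit over all 9 libraries with an intensity trend, and Benjamini-Hochberg adjustment over all 11133 genes at 0.05; the fit was tested on simulated data. The members and lists were chosen with earlier results of these data known. Named genes are the members called in a comparison (up to 15 a direction), the largest changes up to 4 where fewer were called, the 6 highest and 6 lowest levels, fixed role examples, up to 2 genes of each other list (1 gene that this rule names is not reported here), and the 3 highest and lowest mean correlations. Lengths, positions and identity (blastn) came from GENCODE M21 on GRCm38, and promoters from RefSeq GRCm38.p6. The alternatives were pseudocounts of 0.1 and 0.5, other filters, scalings, fits and each library left out.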

Additional observations from a re-analysis of the deposited data

Results flagged for a closer look

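Mrpl52 stood out because its change differed between the knockouts by a test of the difference itself. The effect of the Ndufa4l3miR147KO minus that of the Ndufa4KO, each against wild type, was -0.38 on the log2(TPM + 1) scale (limma adjusted p = 0.013), and the 3 libraries of each knockout did not overlap.

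Mrpl23-ps1 stood out because a signal appeared in an entry that is no member of the family, although it was among the genes tested. This processed pseudogene was listed at a mean of 165 TPM over the 9 libraries, and at 136, 166 and 207 TPM in the Ndufa4KO.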

How the results depend on the processing

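Of 480 values (24 named members or differences under 20 alternatives), 441 kept their direction and side of the threshold, 28 lost and 10 gained a call, and 1 reversed: Mrps30 between the knockouts, -0.00058 with the length and GC trend removed. Most of the 24 were not called to begin with and so had no call to lose, which raises the 441. For the Ndufa4KO against wild type, Mrpl12 lost its call under 11 of the 20 alternatives, Mrps6 under 7, Mrps18b under 4 and Mrpl55 under 3. Mrpl52 kept its call there under all 20, and lost the one between the knockouts under 3. For the Ndufa4KO against wild type, fitting only the 6 libraries compared gave 1 member higher, library weights gave 9 higher and 5 lower, and no filter, median-of-ratios scaling or quantile normalization gave 0 lower; median-of-ratios scaling moved the median to 0.084. Leaving out 1 library gave 1 to 5 higher and 0 to 2 lower. For the Ndufa4l3miR147KO against wild type, library weights gave 2 higher and 1 lower. Between the knockouts, only the 6 libraries compared gave 0 lower, library weights 3 higher and 3 lower, the length and GC trend removed 2 lower, and leaving out 1 library 0 to 2 lower. Over all genes, calls ranged from 13 to 198, 266 to 1586 and 82 to 740 in the 3 comparisons (in the order given in the report) on leaving out 1 library, and were 306, 238 and 64 with only the 6 libraries compared, 538, 3045 and 1726 with library weights, and 130, 1583 and 744 with the trend removed. The cause was not tested. The labels name no animal or batch shared by same-numbered libraries, and the fit did not pair them. Their deviations correlated by -0.14 to 0.18, against -0.16 to 0.13 for libraries of different number. These values do not settle whether any libraries are paired. With a replicate block, Mrpl12 lost its call (adjusted p = 0.061), leaving 3 members higher and 1 lower in the Ndufa4KO, and all genes called were 24, 661 and 162; no other call of a member changed. TPM without depth limits what low members such as Mrpl42 can show.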
